A study of Mus musculus with 6 samples.

Results

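Astrocyte identity and function genes were examined in the ventral dentate gyrus of mice after chronic restraint stress. The set held 32 named genes, astrocyte markers other than the glutamate transporters of the Slc1a family and the sodium pumps, and all 32 were found among the 24062 gene symbols counted. 3 libraries came from stressed animals (CRS, Chronic Restrained Stress) and 3 from animals that were not stressed (Ctrl). All were male mice of the strain given as C57black 6, and no allele or agent is named for either group. The libraries are described as biological replicates, but no source used here gives the duration of the restraint, the age of the mice or whether a library came from 1 animal or a pool, and p-values measure only the spread between these samples. The series is titled for the glial glutamate exchanger xCT, and the comparison it allows is stress against no stress in this tissue.

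Astrocytes are the glial cells that take up transmitters and potassium, couple to each other through gap junctions, wrap blood vessels with water-channel-rich endfeet and store glycogen. Their identity rests on transcription factors such as Sox9 and on Notch and BMP signalling, and they secrete lipoproteins and matrix proteins that act on synapses. In the dentate gyrus the radial stem cells of the subgranular zone share several of these genes, among them Gfap, Vim, Sox9, Id4 and Hes5.

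The libraries held 8305753 to 10107953 counts assigned to genes, and a gene of the set had between 53 and 22715 counts in a library. The 32 genes, all protein coding, lie on 18 chromosomes. The 4 defining markers were present in every library, with Gfap at 270.1 to 349 CPM (the count of a gene scaled to the gene total of its library), Aqp4 at 157.4 to 225 CPM, Gja1 at 153.8 to 208.3 CPM and Aldh1l1 at 57.55 to 71.23 CPM. Markers of granule neurons, the main neuron of the dentate gyrus, were present too, but at a summed 860.2 CPM in CRS replicate 1, against 1611 and 1809 CPM in CRS replicates 2 and 3 and 1399 to 1780 CPM in Ctrl. Choroid plexus genes summed to 7511 CPM in CRS replicate 1, and to 154.5 to 209.4 CPM in the other 5 libraries. CRS replicate 1 therefore stood apart, and the main results are given with and without it. Its chi-square per degree of freedom against the other libraries was 17.3 to 20.6, where pairs without it gave 3.09 to 8.90.

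Levels of the genes relative to each other were compared per kilobase of exon, with exon lengths from GENCODE M21. Sparcl1, for a secreted matrix protein that promotes synapse formation, had the highest level, at 573 ± 57.1 CPM per kb in CRS and 726 ± 37.8 CPM per kb in Ctrl (SD, n = 3 each). The protease inhibitor gene Cst3 followed at 496 ± 24.6 CPM per kb in CRS and 495 ± 37.4 in Ctrl, and the lipoprotein gene Apoe at 432 ± 11 CPM per kb in CRS and 464 ± 50.9 in Ctrl. These were followed by Aldoc, the brain aldolase, at 214 ± 17.5 CPM per kb in CRS and 243 ± 19.4 in Ctrl, and by the chaperone gene Clu at 191 ± 1.30 CPM per kb in CRS and 202 ± 18.1 in Ctrl. The lowest was Cbs, for an enzyme of cysteine synthesis, at 2.75 ± 0.307 CPM per kb in CRS and 3.02 ± 0.559 in Ctrl, which is 226-fold below Sparcl1 over all libraries. Both connexin genes lay in the lower part of this order, Gjb6 at rank 17 and Gja1 at rank 21 of 32. The order depends on the lengths used, which were 10257 bases for Gja1, 7485 for Cbs and 2674 for Gjb6. A length taken over all transcripts can exceed that of the transcripts expressed, which would lower the level given.

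**Figure D1:**
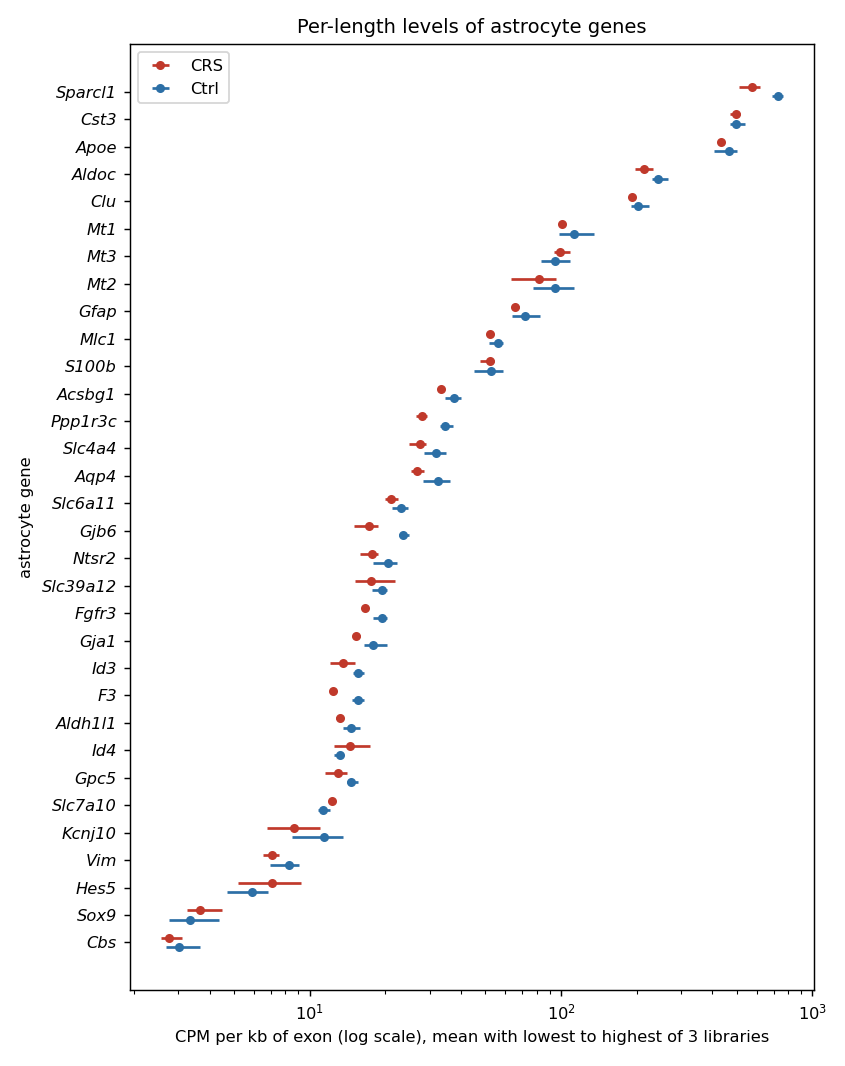
Mean level per kilobase of exon (log axis) of each of the 32 astrocyte genes, with CRS above Ctrl and bars from the lowest to the highest of 3 libraries. Sparcl1, Cst3 and Apoe stand at the top and Sox9 and Cbs at the bottom, and most genes have a lower mean in CRS.

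None of the 32 genes passed the test between stress and control. All 32 passed the filter on low counts, and 26 had a lower and 6 a higher fitted level in CRS, where 49% of all 14058 tested genes had a lower one. Their median log2 fold change, CRS over Ctrl, was -0.15, where the median of all tested genes was 0.004. By edgeR's quasi-likelihood test with Benjamini-Hochberg adjustment over all tested genes, 0.0285% of genes were called lower and 0% higher at an adjusted p under 0.05. Before adjustment, 7 of the 32 genes were lower and 0 higher at p under 0.05 by edgeR (Gjb6, Ppp1r3c, Sparcl1, F3, Fgfr3, Aqp4 and Gja1 were lower), where 4.85% of all tested genes were lower and 3.86% higher. DESeq2 called 0.484% of genes lower and 0.278% higher and limma-voom 0.00711% lower and 0% higher, and each called 0 of the 32 genes. At an unadjusted p under 0.05 each gave 7 of the 32 lower and 0 higher, against 3.29% and 2.86% of all tested genes by DESeq2 and 4.93% and 3.55% by limma-voom. In 9 of the 32 genes all CRS libraries lay below all Ctrl libraries, where this held for 9.03% of all tested genes. In 1 of the 32, Slc7a10, all CRS libraries lay above all Ctrl libraries, against 5.68% of all tested genes. With CPM scaled by the trimmed mean of M values, 8 were lower and 1 higher without overlap, against 7.84% and 6.76% of all tested genes. CPM is a share of a library's gene total. A lower CPM in tissue RNA therefore cannot tell apart fewer astrocytes, less RNA per astrocyte and more RNA from other cells.

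**Figure D2:**
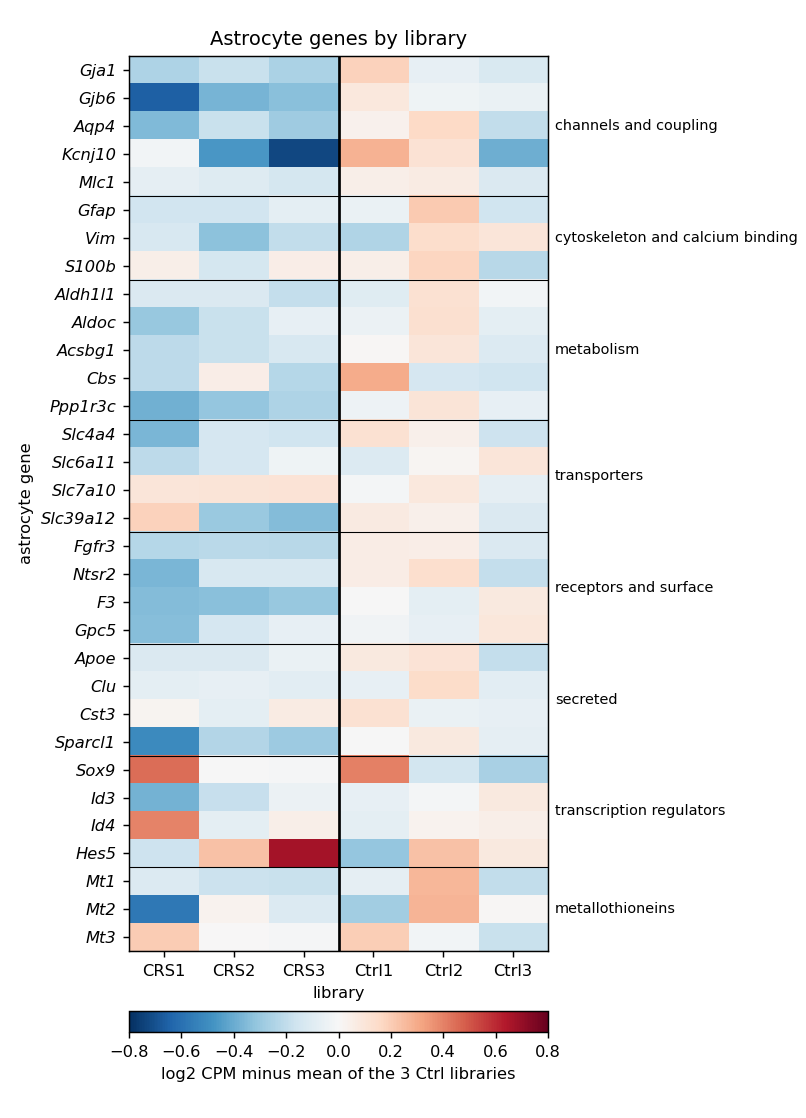
Colour gives log2 CPM of each gene (rows, grouped by role) in each library (columns, CRS left of the line, Ctrl right) minus the mean of the 3 Ctrl libraries. Blue predominates in the CRS columns for channels, metabolism and receptors, while the transcription regulators are mixed, with Sox9 and Id4 high in CRS replicate 1 and Hes5 high in CRS replicate 3.

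In the level of the set the groups did not overlap, but the margin was narrow. The level of the set, taken as the median over the genes of log2(CPM + 0.5) minus the Ctrl mean, was -0.18, -0.14 and -0.13 in CRS replicates 1, 2 and 3, and 0.005, 0.080 and -0.097 in Ctrl replicates 1, 2 and 3. Ctrl replicate 3 thus lay close to CRS replicate 3, while Ctrl replicate 2 was the highest. 15 of the 32 genes were highest in Ctrl replicate 2 and 14 were lowest in CRS replicate 1, where 14.8% and 29.5% of all tested genes were. Without Ctrl replicate 3 the groups did not overlap in 18 of the 32 genes lower in CRS and 1 higher, against 14.1% and 9.5% of all tested genes in those 5 libraries. Without Ctrl replicate 1 this held for 12 lower and 3 higher (Slc7a10, Sox9 and Mt3), against 15% and 9.7%, and without Ctrl replicate 2 for 9 lower and 1 higher, against 13.3% and 9.43%. Without CRS replicate 2 it held for 11 lower and 1 higher, against 15.9% and 10.2%, and without CRS replicate 3 for 12 lower and 1 higher, against 13.6% and 8.74%. Without CRS replicate 1 it held for 11 lower and 2 higher (Slc7a10 and Hes5), against 15.4% and 13.7%. At an unadjusted p under 0.05, 10 of the 32 genes were then lower and 1, Hes5, was higher, against 6.13% and 5.4% of all tested genes. Without CRS replicate 1 the fitted level was lower in 30 of the 32 genes, the median was -0.12, and 0 genes passed, where 0.211% of all tested genes were called lower and 0.0775% higher.

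Genes of coupling, water and potassium channels had the lowest median of the 8 roles, at a log2 fold change of -0.27, and all 5 were lower in CRS. Gjb6 (chr14:57123303-57133611 on GRCm38, minus strand) encodes a connexin of astrocyte gap junctions and was at 39.99, 48.51 and 49.76 CPM in CRS, against 66.70, 61.44 and 60.45 CPM in Ctrl. The groups did not overlap, and the gap between the highest CRS and the lowest Ctrl library was wider than the spread of the Ctrl libraries. Its log2 fold change of -0.43 (SE 0.10, 95% interval -0.66 to -0.22) ranked 102 by p among all tested genes, with an adjusted p of 0.251 by edgeR. Leaving out CRS replicate 1 gave -0.35 (SE 0.09) and an edgeR adjusted p of 0.105. Over all alternatives the adjusted p ran from 0.0767, by DESeq2, to 0.714, by edgeR without Ctrl replicate 3. Gja1, for the most widely expressed astrocyte connexin, was at 154.5, 161.7 and 153.8 CPM in CRS, against 208.3, 175.3 and 168.5 CPM in Ctrl. CRS libraries lay close together and all below Ctrl, of which replicate 1 was the highest by far. Its log2 fold change was -0.22 (SE 0.09), and -0.11 without Ctrl replicate 1.

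Aqp4, the water channel of astrocyte endfeet, was at 157.4, 177.6 and 165.1 CPM in CRS, against 206.5, 225 and 175.7 CPM in Ctrl. Ctrl replicate 3 lay just below CRS replicate 2, so the groups overlapped, and the log2 fold change was -0.27 (SE 0.10). Kcnj10, the inwardly rectifying potassium channel of astrocytes, was at 59.45, 43.85 and 36.46 CPM in CRS, against 73.32, 65.49 and 46.09 CPM in Ctrl. Relative to its mean it varied more within both groups than any other gene of this role, and its log2 fold change of -0.39 (SE 0.21) was -0.61 without CRS replicate 1 and -0.23 without CRS replicate 3. Mlc1, a membrane protein gene mutated in a leukoencephalopathy with cysts, differed least, at 146 ± 3.33 CPM in CRS and 158 ± 11 CPM in Ctrl.

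Among genes of metabolism all 5 were lower in CRS, and the groups did not overlap in 3 of them, where 9.03% of all tested genes lay lower without overlap. Ppp1r3c, which targets protein phosphatase to glycogen and favours its synthesis, was at 72.18, 76.15 and 79.47 CPM in CRS, against 91.74, 101.2 and 90.03 CPM in Ctrl. The groups were clearly apart, with a log2 fold change of -0.30 (SE 0.07, 95% interval -0.47 to -0.13) and an adjusted p of 0.282 by edgeR. Acsbg1, a fatty acyl-CoA synthetase, was at 116.7, 119.2 and 123.4 CPM in CRS, against 135.8, 144.2 and 124.7 CPM in Ctrl. Aldh1l1, a folate enzyme used as a pan-astrocyte marker, was at 60.42, 60.52 and 57.55 CPM in CRS, against 61.40, 71.23 and 64.52 CPM in Ctrl. For both, the nearest libraries of the groups differed by little, and the log2 fold changes were -0.16 (SE 0.07) and -0.13 (SE 0.08). Aldoc averaged 699 ± 57.3 CPM in CRS and 794 ± 63.3 CPM in Ctrl, and Cbs 20.6 ± 2.30 CPM in CRS and 22.6 ± 4.18 CPM in Ctrl, and in both the groups overlapped.

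The 4 receptor and surface genes were all lower in CRS, 3 of them without overlap, or 2 with scaling by trimmed means, where this held for 9.03% and 7.84% of all tested genes. F3, which encodes tissue factor, the starter of blood clotting, was at 30.80, 31.14 and 31.79 CPM in CRS, against 39.13, 37.20 and 41.37 CPM in Ctrl. The groups were well apart, with a log2 fold change of -0.31 (SE 0.08, 95% interval -0.50 to -0.13) and an adjusted p of 0.337 by edgeR. Fgfr3, a fibroblast growth factor receptor of astrocytes and their precursors, was at 118.7, 119.4 and 119 CPM in CRS, against 144.5, 144.3 and 128.3 CPM in Ctrl. CRS libraries were almost equal while Ctrl replicate 3 lay nearer to them than the other Ctrl libraries did, and the log2 fold change was -0.21 (SE 0.07). The heparan sulfate proteoglycan gene Gpc5 was at 51.33, 59.35 and 62.33 CPM in CRS, against 63.93, 62.33 and 69.35 CPM in Ctrl. Its groups met at 62.33 CPM, and they overlapped with the scaling by trimmed means named above. Ntsr2, a neurotensin receptor gene, averaged 55.2 ± 5.0 CPM in CRS and 63.8 ± 7.23 CPM in Ctrl and overlapped.

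**Figure D3:**
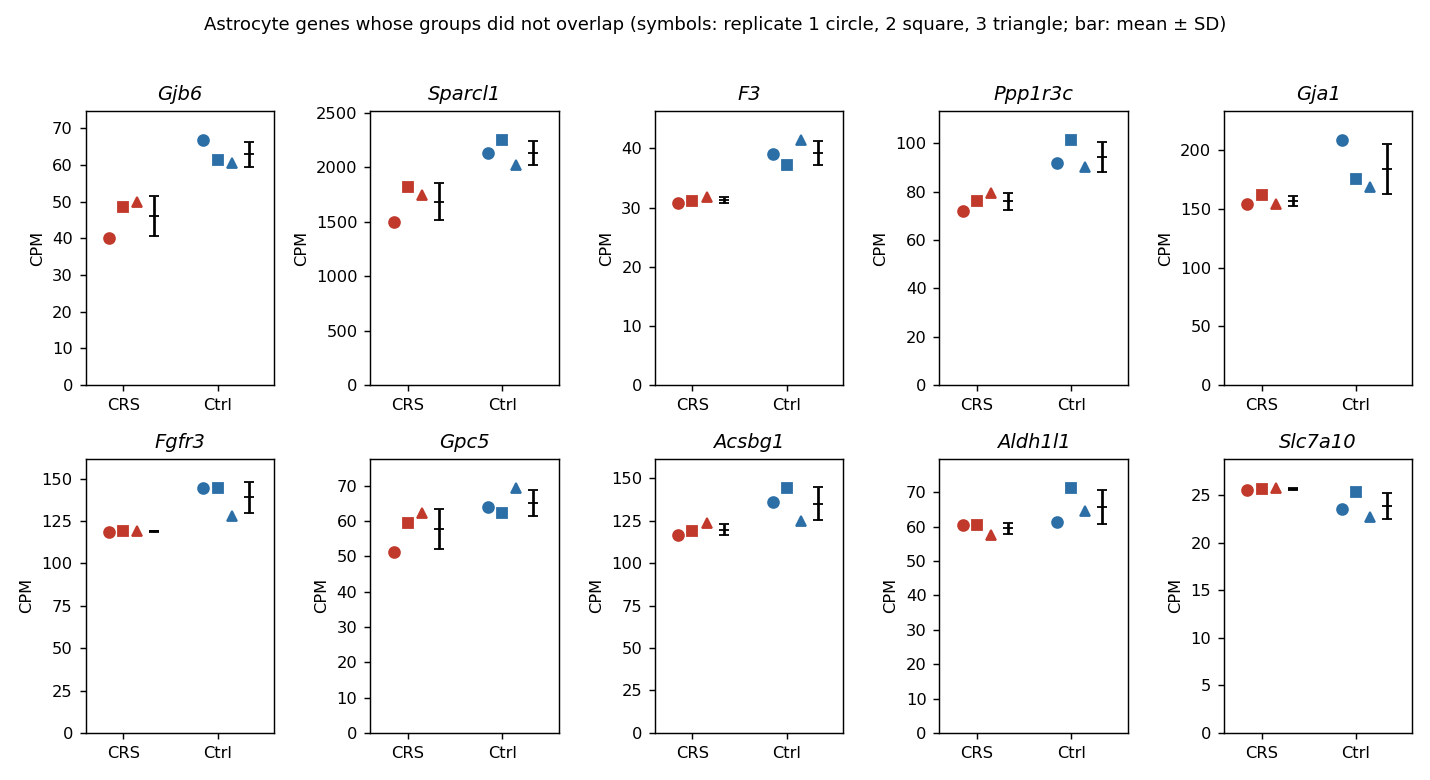
CPM in each library (symbols by replicate number) of the 10 genes whose groups did not overlap, CRS left of Ctrl, with mean ± SD of 3 libraries beside the points and axes from 0. 9 genes lie lower in CRS and Slc7a10 higher; relative to the level the gap is widest for Gjb6 and narrow for Gpc5, Acsbg1, Aldh1l1 and Slc7a10.

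Upstream sequence is shown for the 3 genes with the smallest p among those with an entry in the RefSeq promoter table (Gjb6, Ppp1r3c and F3, chosen after their values were seen) and for the metallothionein gene Mt2, which has the most motif matches of the metallothioneins. Each window holds the 250 bases before the RefSeq start on GRCm38.p6, 5′ to 3′ on the gene's strand, and capitals mark matches to the motifs searched. Gjb6 is on the minus strand at chr14:57133612-57133861, Ppp1r3c on the minus strand at chr19:36736605-36736854, F3 on the plus strand at chr3:121723287-121723536 and Mt2 on the plus strand at chr8:94172368-94172617.
Gjb6: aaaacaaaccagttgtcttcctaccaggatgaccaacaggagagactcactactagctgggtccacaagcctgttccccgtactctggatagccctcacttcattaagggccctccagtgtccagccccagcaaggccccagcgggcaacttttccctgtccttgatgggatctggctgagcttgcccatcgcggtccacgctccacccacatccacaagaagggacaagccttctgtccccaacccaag
Ppp1r3c: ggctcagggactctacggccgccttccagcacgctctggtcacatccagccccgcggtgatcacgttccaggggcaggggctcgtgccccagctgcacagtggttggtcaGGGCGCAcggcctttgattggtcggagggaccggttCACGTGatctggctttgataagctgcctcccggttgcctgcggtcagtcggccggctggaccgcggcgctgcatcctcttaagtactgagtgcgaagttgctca
F3: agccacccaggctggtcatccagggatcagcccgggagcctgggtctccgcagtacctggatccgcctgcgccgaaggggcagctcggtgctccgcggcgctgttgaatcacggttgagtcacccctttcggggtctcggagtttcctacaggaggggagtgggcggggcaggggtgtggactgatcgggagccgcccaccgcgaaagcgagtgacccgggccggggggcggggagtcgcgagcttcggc
Mt2: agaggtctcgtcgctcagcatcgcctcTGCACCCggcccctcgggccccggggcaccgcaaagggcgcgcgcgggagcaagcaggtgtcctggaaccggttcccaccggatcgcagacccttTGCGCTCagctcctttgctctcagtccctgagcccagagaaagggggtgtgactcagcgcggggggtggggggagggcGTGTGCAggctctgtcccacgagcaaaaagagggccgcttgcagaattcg
The motifs, searched on both strands, were the metal response element core (TGCACNC or TGCGCNC), the glucocorticoid receptor core (AGAACA), the E-box (CACGTG) and a SOX core (ACAATGG or AACAATG, which can overlap each other). Ppp1r3c held 1 metal response element core, 140 to 134 bases upstream on the opposite strand, and 1 E-box, 104 to 99 bases upstream. Mt2 held 3 metal response element cores, and Gjb6 and F3 held none of the motifs. 28 of the 32 genes had a window, with 33 windows between them, and a gene was counted if any of its windows matched. Of these 28 genes 7 held a metal response element core, 3 a glucocorticoid receptor core, 3 an E-box and 1 a SOX core. Over all 32851 windows of the same length, 21.4%, 16.1%, 6.02% and 5.35% held them in that order. These shares are per window, so a gene with more than 1 window had more room for a match. The starts of Ppp1r3c and Mt2 in GENCODE M21 lie 49 and 46 bases from the RefSeq starts, so these windows depend on the annotation.

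Among the secreted proteins, Sparcl1 stood apart from the others. Sparcl1 (chr5:104079111-104113733, minus strand) was at 1495, 1815 and 1742 CPM in CRS, against 2129, 2247 and 2025 CPM in Ctrl, with no overlap and CRS replicate 1 the lowest. The log2 fold change of Sparcl1 was -0.33 (SE 0.08, 95% interval -0.51 to -0.15), with an adjusted p of 0.308 by edgeR and 0.0560 by DESeq2, and -0.26 (SE 0.06) without CRS replicate 1. A gene annotated on the opposite strand, Gm26703, overlaps Sparcl1, and no source used here gives the strand setting of the counting. Apoe, the main lipoprotein of astrocytes, averaged 924 ± 23.6 CPM in CRS and 992 ± 109 CPM in Ctrl, and Clu 657 ± 4.44 CPM in CRS and 693 ± 62.4 CPM in Ctrl. Cst3 averaged 627 ± 31.1 CPM in CRS and 627 ± 47.4 CPM in Ctrl, and its 95% interval of the log2 fold change was -0.16 to 0.20. In Apoe and Clu, Ctrl replicate 3 was the lowest of all 6 libraries.

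The transporters were mixed. Slc4a4, the sodium bicarbonate cotransporter, was at 266.8, 313.2 and 307.5 CPM in CRS, against 375, 353.5 and 307.4 CPM in Ctrl, so Ctrl replicate 3 lay among the CRS libraries. The log2 fold change was -0.21 (SE 0.09). Slc7a10, a transporter of glycine, serine and other small amino acids, was at 25.56, 25.65 and 25.76 CPM in CRS, against 23.60, 25.33 and 22.72 CPM in Ctrl. It was the one gene of the set with all CRS libraries above Ctrl, by a narrow margin, with a log2 fold change of 0.12 (SE 0.09), and Lrp3 overlaps it on the opposite strand. The GABA transporter gene Slc6a11 averaged 107 ± 6.5 CPM in CRS and 116 ± 8.29 CPM in Ctrl. The zinc transporter gene Slc39a12 was at 65.44, 46.99 and 45.39 CPM in CRS, against 60.68, 59.36 and 53.16 CPM in Ctrl, with CRS replicate 1 the highest of all libraries. Without that library its log2 fold change was -0.32 (SE 0.09), against -0.12 (SE 0.14) with it.

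The groups overlapped in all 3 cytoskeletal and calcium-binding genes. Gfap, the intermediate filament gene that marks astrocyte reactivity, was at 271.7, 271 and 286 CPM in CRS, against 291.1, 349 and 270.1 CPM in Ctrl. Only Ctrl replicate 2 lay clearly above the rest, and the log2 fold change of -0.12 (SE 0.09, 95% interval -0.33 to 0.10) was -0.006 without it. Vim, a filament gene of immature and reactive astrocytes, averaged 33.6 ± 2.37 CPM in CRS and 39.2 ± 5.45 CPM in Ctrl. S100b averaged 77.0 ± 5.70 CPM in CRS and 78.0 ± 10.5 CPM in Ctrl, and the direction of this difference turned under several alternatives.

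The transcription regulators had the highest median of the roles, at a log2 fold change of 0.15, but it was -0.015 without CRS replicate 1. Sox9, which specifies glia, was at 18.50, 13.53 and 13.50 CPM in CRS, against 17.94, 12.27 and 11.36 CPM in Ctrl, with replicate 1 the highest in each group. Id4, an inhibitor of bHLH factors, was at 66.62, 48.04 and 52.35 CPM in CRS, against 48.04, 51.54 and 52.41 CPM in Ctrl, and CRS replicate 1 alone lay above the rest. Without CRS replicate 1 the log2 fold change was -0.022 for Sox9 and -0.009 for Id4. Hes5, a target of Notch signalling, was at 7.06, 9.33 and 12.57 CPM in CRS, against 6.38, 9.30 and 8.36 CPM in Ctrl, and CRS replicate 3 was the highest. Its log2 fold change was 0.28 (SE 0.23), and 0.047 without CRS replicate 3. Id3, a target of BMP signalling, averaged 24.4 ± 2.82 CPM in CRS and 28.0 ± 1.45 CPM in Ctrl.

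The metallothionein genes Mt1, Mt2 and Mt3 bind zinc and copper and lie in 1 cluster on chromosome 8, with Mt2 5513 bases before Mt1 and Mt3 18517 bases before Mt2. Their directions were mixed. Mt1 was at 129.7, 124.3 and 123.7 CPM in CRS, against 133.2, 168.2 and 122.1 CPM in Ctrl, and without Ctrl replicate 2 its log2 fold change of -0.15 (SE 0.11) was -0.003. Mt2 was at 37.00, 56.09 and 50.90 CPM in CRS, against 45.39, 66.28 and 55.31 CPM in Ctrl, with CRS replicate 1 the lowest. The log2 fold change of Mt2 was -0.20 (SE 0.17), and -0.058 without that library. Mt3, the brain form, averaged 105 ± 8.88 CPM in CRS and 101 ± 13.3 CPM in Ctrl, and both replicate 1 libraries were high. In all 3 genes the groups overlapped.

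**Figure D4:**
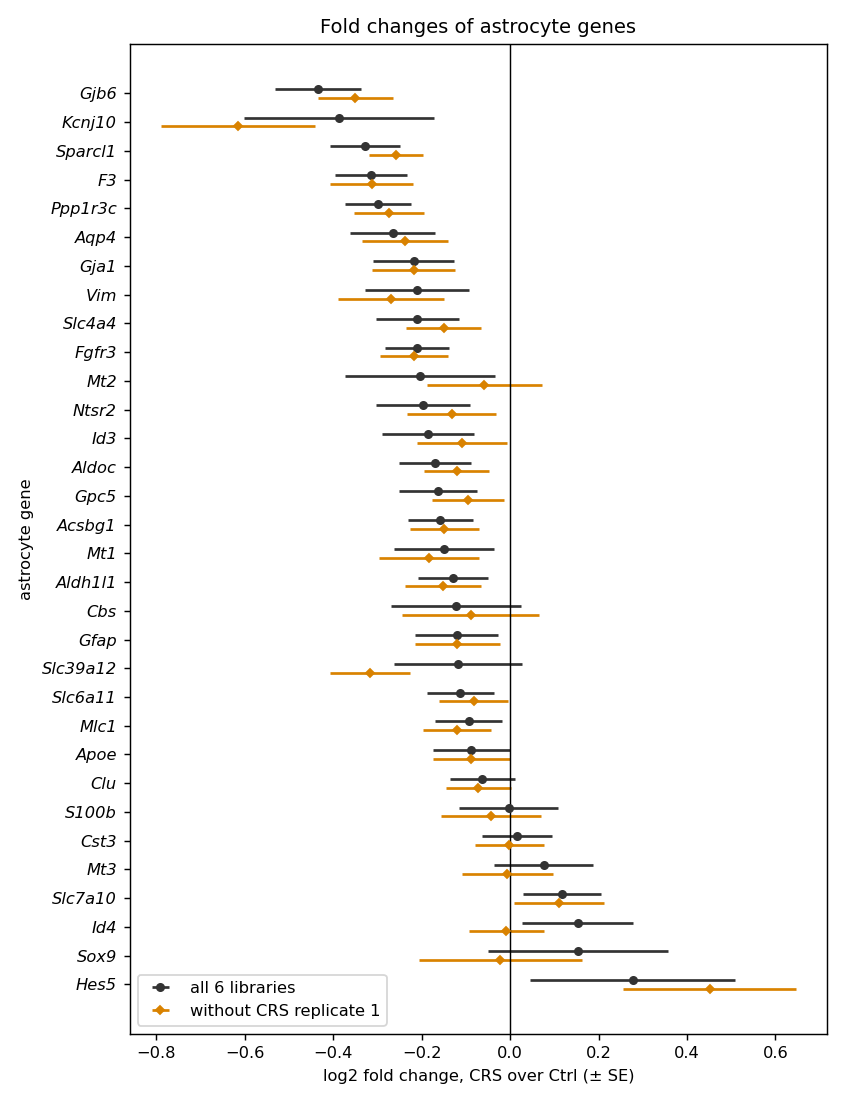
Log2 fold change, CRS over Ctrl, ± SE of each of the 32 genes, with all 6 libraries (circles) and without CRS replicate 1 (diamonds). 26 genes lie left of 0 with all libraries, led by Gjb6 and Kcnj10, and Sox9, Id4, Mt3 and Cst3 move to just below 0 without that library.

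A second list of 60 other astrocyte genes, with the glutamate transporters, sodium pumps and Slc7a11, gave a similar median. Of its 60 tested genes 51 were lower and 9 higher in CRS, and the median log2 fold change was -0.15. Without CRS replicate 1, 48 were lower and 12 higher, where 51.5% of all tested genes were lower, and the median was -0.12. With all libraries none passed by edgeR and 1, Slc7a11, passed by DESeq2. The groups did not overlap in 14 of the 60, all of them lower in CRS, against the 9.03% of all tested genes given above. Slc7a11, which encodes xCT, had the smallest p of that list and was at 74.96, 92.24 and 110.6 CPM in CRS, against 131.8, 134.9 and 132.1 CPM in Ctrl, with no overlap. Its log2 fold change was -0.51 (SE 0.12), and -0.38 (SE 0.08) without CRS replicate 1. Its adjusted p was 0.268 by edgeR and 0.0238 by DESeq2, past the threshold by DESeq2 alone. Over the alternatives its adjusted p ran from 0.0238 to 0.77. Gjb6 was at -0.43, with an adjusted p of 0.251 by edgeR and 0.0767 by DESeq2. In order of p, not of fold change, Slc7a11 was followed on the lower side of that list by 2 further genes. They were the mitochondrial glutamate carrier gene Slc25a18 at -0.36 (SE 0.11) and the GABA receptor subunit gene Gabrg1 at -0.25 (SE 0.08). The 4 higher with the smallest p were Pbxip1, Fzd2, Slco1c1 and Sox2, with log2 fold changes between 0.09 and 0.23. CRS replicate 1 was the highest library for Slco1c1, at 84.79 CPM, and for Pbxip1, at 61.27 CPM. Without that library the log2 fold change of Slco1c1 was -0.049, against 0.17 with it, and that of Pbxip1 was 0.045, against 0.16 with it.

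Genes that reactive astrocytes raise were split in direction. Of 25 such genes 20 passed the filter, and none was past the threshold. Of these 20, 12 were higher and 8 lower in CRS, with a median of 0.040 on the log2 scale. Without CRS replicate 1, 10 were higher and 10 lower, with a median of 0.026. Serpina3n, a protease inhibitor gene raised in reactive astrocytes, was at 56.46, 40.35 and 53.19 CPM in CRS, against 37.56, 40.76 and 33.33 CPM in Ctrl. CRS replicate 2 lay within the Ctrl libraries, and its log2 fold change of 0.44 (SE 0.14) had an adjusted p of 0.450 by edgeR. Emp1, Stat3 and Cd109 came next by p on the higher side, at 0.41 (SE 0.27), 0.13 (SE 0.09) and 0.68 (SE 0.50). Cd109 was at 16.89 CPM in CRS replicate 1 and at 5.01 and 6.23 CPM in the other CRS libraries, and without CRS replicate 1 its log2 fold change was -0.065. On the lower side were the MHC gene H2-D1 at -0.36 (SE 0.14), Aspg at -0.76 (SE 0.31), Gbp2 at -0.48 (SE 0.26) and Serping1 at -0.43 (SE 0.26). Lcn2 ran from 0.749 to 11.01 CPM within CRS and from 1.32 to 7.52 CPM within Ctrl.

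Of 14 glucocorticoid-responsive genes, among which Gjb6 had been placed, 7 were higher and 7 lower in CRS. Their median was -0.022 on the log2 scale, and none was past the threshold. Without CRS replicate 1, 6 were higher and 8 lower, with a median of -0.072. Errfi1, a feedback inhibitor of growth factor receptors, was at 52.82, 52.24 and 47.78 CPM in CRS, against 39.85, 45.90 and 43.30 CPM in Ctrl, with no overlap and a log2 fold change of 0.26 (SE 0.09). Fkbp5, Pdk4 and Plin4 came next by p, at 0.13 (SE 0.07), 0.19 (SE 0.16) and 0.64 (SE 0.54), and Plin4 was at -0.47 without CRS replicate 1. Cdkn1a, Tsc22d3 and Nfkbia were at -0.47 (SE 0.30), -0.17 (SE 0.15) and -0.10 (SE 0.09).

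Among markers of other cells in the dissected tissue, the largest departures were in CRS replicate 1. All 6 tested choroid plexus genes of 15 were highest in that library, with Ttr at 4171 CPM there against 2.08 to 6.53 CPM elsewhere and Enpp2 at 2582 CPM there against 121.8 to 177.7 CPM elsewhere. The 10 ependymal genes in the files summed to 137.6 CPM there and to 40.72 to 47.46 CPM in the other libraries. Granule neuron genes were lowest there in 11 of 12, with Prox1 at 47.48 CPM against 93.14 to 132 CPM elsewhere. Oligodendrocyte genes were highest there in 11 of 12. Without that library the medians of the choroid plexus, ependymal, granule neuron and oligodendrocyte lists were 0.072, 0.14, 0.13 and -0.080. The median of the 32 astrocyte genes was then -0.12, that of pan-neuronal genes -0.11 and that of meningeal and perivascular fibroblast genes -0.34. The oligodendrocyte precursor, microglial, endothelial and mural, and neural stem and progenitor lists were at 0.135, 0.135, -0.011 and 0.01. Of 4 astrocyte genes highest in CRS replicate 1, Sox9, Id4 and Mt3 had log2 fold changes of -0.022, -0.009 and -0.006 without it. Slc39a12 was at -0.12 with that library and -0.32 without it. As these 4 were picked for being highest in that library, leaving it out lowers their fold changes by construction.

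With all libraries the median log2 fold change was -0.008 over pan-neuronal genes, 0.076 over oligodendrocyte precursor genes and 0.089 over microglial genes. It was -0.062 over endothelial and mural genes and 0.047 over neural stem and progenitor genes. Meningeal and perivascular fibroblast genes had the lowest median of the lists, at -0.34, with 9 of 12 lower in CRS and none past the threshold. Their median level against the Ctrl mean was -0.59, -0.37 and -0.21 in CRS, against 0.16, -0.18 and 0.11 in Ctrl, on the log2(CPM + 0.5) scale. The same genes summed to 163.1, 121.5 and 158.6 CPM in CRS, against 141.5, 131.6 and 166.2 CPM in Ctrl. In CRS replicate 1, Igf2 gave 94.95 CPM of this sum, against 16.91 to 30.34 CPM in the other libraries. The part of the fibroblast genes in the astrocyte values was not tested. Summed over the 32 astrocyte genes, of which Sparcl1 and Apoe gave the most, the level was 6660, 7046 and 7129 CPM in CRS, against 7993, 8359 and 7335 CPM in Ctrl. Without Sparcl1 the other 31 genes summed to 5165, 5231 and 5387 CPM in CRS, against 5865, 6112 and 5309 CPM in Ctrl. The sums did not overlap with Sparcl1 and overlapped without it, when Ctrl replicate 3 lay below CRS replicate 3.

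**Figure D5:**
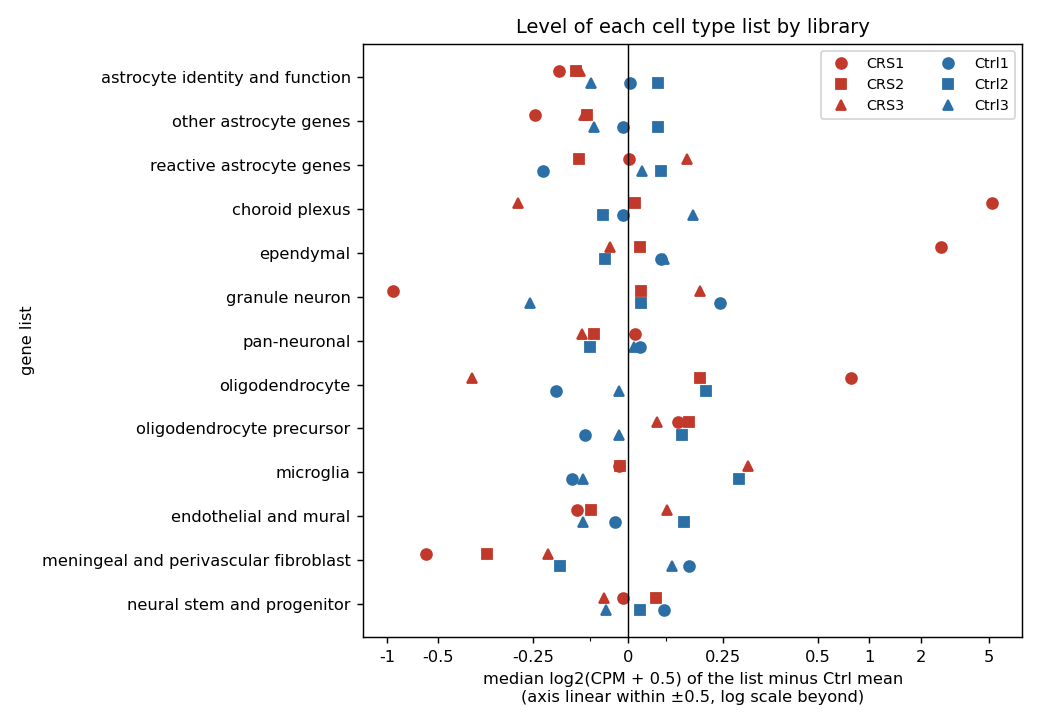
Level of each gene list (rows) in each library, as the median log2(CPM + 0.5) of its genes minus the Ctrl mean, with CRS above Ctrl and a log scale beyond 0.5. The astrocyte identity list lies between -0.18 and -0.13 in CRS and between -0.097 and 0.080 in Ctrl, while CRS replicate 1 stands far off in the choroid plexus, ependymal, granule neuron and oligodendrocyte lists.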

How the data were processed

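Each library has a deposited file of raw counts, in which a row is a gene symbol. Tools named in the submitters' processing notes, with no role or order, are edgeR 3.12.0, HTSeq 0.6.1, TopHat2 2.0.9, Trimmomatic 0.33 and FastQC 0.11.3, beside the builds GRCm38 and mm10. No source used here gives the annotation or the strand setting. Per the labels and the series' design text, total RNA was depleted of ribosomal RNA, prepared with a stranded kit and sequenced together as single-end reads, the pool being spread over lanes. Reads assigned to no gene made up 59.5% to 63.1% of the reads listed and ambiguous reads 0.211% to 0.253%, per the deposited files, and these rows were left out. CPM is the count over the library's gene total. 3 counts equal 0.297 to 0.361 CPM, for counting error only.

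Tests were run in R 4.3.3 with edgeR 4.0.16 (filterByExpr, scaling by trimmed mean of M values or TMM, quasi-likelihood, group as the single term, two-sided) on all 14058 genes kept, and checked on simulated counts. Standard errors and 95% intervals come from limma 3.58.1 voom. DESeq2 1.42.0, other scalings and filters, the replicate number as a block and leaving out each library were alternatives. Positions and exon lengths come from GENCODE M21 (all 32 symbols matched 1 gene). 12 of the 32 genes overlap a gene on the opposite strand.

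The genes and lists were chosen with earlier results of these data known, so their counts are descriptions. A rule named the 32 genes, Slc7a11, the 4 genes with the smallest p per direction in 3 further lists, and the most abundant markers of cell types that stood apart in 1 library. 1 gene that this rule names is not reported here. Lcn2, Igf2 and the sum without Sparcl1 were singled out after their values were seen. So were Apoe as the second contributor to the sum, and Ppp1r3c and F3 for their sequences. 1 symbol entered in the reactive list by mistake was left out. Protein sequences were not used here.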

Additional observations from a re-analysis of the deposited data

How the results depend on the processing

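None of the 32 astrocyte genes passed under any of the 13 alternative fits, or by edgeR at an adjusted p under 0.1. Their median log2 fold change ran from -0.18 to -0.10 over fits leaving out 1 library each, and stayed between -0.16 and -0.15 over the other fits. Over the whole table DESeq2 called 39 genes higher and 68 lower, limma-voom 1 lower and the fit with the replicate block 0 lower, against 0 higher and 4 lower by edgeR. Leaving out 1 library each gave 0 to 11 higher and 0 to 30 lower, with 30 lower without CRS replicate 1, 26 without CRS replicate 2 and 0 without each of the other 4. Separation of the groups without 1 library ran from 1 to 3 of the 32 genes higher and from 9 to 18 lower. S100b, at a log2 fold change of -0.003, turned to 0.0019 with the filter of CPM of at least 1 in 3 libraries, 0.0032 with limma-voom and 0.0018 with the replicate block. Leaving out 1 library each turned signs, with ranges of -0.103 to 0.087 for S100b, -0.022 to 0.38 for Sox9, -0.10 to 0.016 for Clu, -0.016 to 0.088 for Cst3, -0.0086 to 0.25 for Id4, -0.0063 to 0.19 for Mt3 and -0.21 to 0.044 for Cbs. The cause was not tested. Same-numbered libraries of the groups had correlations of deviations of 0.139, -0.003 and 0.047, so the numbers were not taken as pairs and the block changed no call among the 32. No gene of the set had fewer than 53 counts in a library, so none rested on the floor of 3 counts. At the level of replicates the common biological coefficient of variation was 12%.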
